A study of Gallus gallus with 3 samples.

Results

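The nuclear genes of oxidative phosphorylation were followed through the early forelimb field of the chick. They were chosen by symbol, as every gene whose symbol begins with NDUFA, NDUFB, NDUFC, NDUFS or NDUFV and ends in a number, begins with COX4 to COX8, UQCR or ATP5, or is SDHA, SDHB, SDHC or SDHD. The rule found 64 of the 16748 genes in the tables, and all 64 were measured. Of these, 30 belong to complex I, 4 to complex II, 8 to complex III, 10 to complex IV and 12 to ATP synthase (complex V). NDUFA4 and COX7A2L are counted with complex IV, and ATP5S is counted with complex V by its symbol although its product is not part of the core enzyme.

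Oxidative phosphorylation takes place in the inner mitochondrial membrane. Complexes I and II pass electrons from NADH and succinate to ubiquinone, complex III passes them to cytochrome c and complex IV to oxygen, and ATP synthase uses the proton gradient so built to make ATP. Complexes I, III, IV and V are mosaics of subunits encoded in the nucleus, which are the genes described here, and of a few encoded by the mitochondrial genome, whereas complex II is wholly nuclear. Some nuclear subunits carry the redox centres or the catalytic sites, and many more are small accessory subunits needed for assembly and stability. Early embryos draw energy from glycolysis as well as from respiration.

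The forelimb field, the strip of embryo lateral to the somites that will form the wing, was dissected from Wildtype chick embryos without treatment at Hamburger-Hamilton (HH) stages 10, 14 and 18, labelled e1.5, e2.5 and e3.5. Eggs were kept at 37 degrees, and each stage gave 1 single-cell 3′ library from pooled male and female embryos. With 1 library per stage no test between stages is possible, the spread between embryos or dissections is unknown, and a difference between stages cannot be told apart from a difference between libraries. All intervals below are 95% intervals that cover counting error only.

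The HH10, HH14 and HH18 libraries held 1210, 1313 and 739 annotated cells, with 11855255, 11267879 and 6557527 UMIs (unique molecular identifiers, barcodes that count single RNA molecules). The median cell had 7799, 6641 and 5994 UMIs in the same order, and 1 cell barcode was found in more than 1 library. Cell classes are those of the authors' annotation, in which LPM stands beside lateral plate names and MES beside mesoderm names. Checked against marker genes, blood vessels had 7 of 7 endothelial markers over 2-fold above the other cells of the library in each stage, and somitic MES had 5 of 5. Endoderm had 4 of 4 at HH10 and 3 of 4 at HH14, and intermediate MES 2 of 3. The c2 ectoderm had 5 of 6, and c11 ectoderm 4 of 6 with a summed marker level at HH14 below the other cells. Limb bud mesenchyme and splanchnic LPM had 3 of 5 at HH14 and HH18, and flank LPM 3 of 5 and 2 of 5. Somatopleure, extraembryonic LPM, primitive MES, gut and undifferentiated LPM 1 and 7 had no marker list and were not checked. The class called amnion had 1 of 5 amnion markers (HAND1) above 2-fold, with 3 of the 5 at 0 at HH14 and 2 at HH18, and the HH10 class called primitive streak had 2 of 4 (TBXT and TBX6).

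The 64 genes together made up 3.59% of all UMIs at HH10 (interval 3.58 to 3.60), 3.46% at HH14 and 3.28% at HH18. The fold of the summed share was 0.964 (0.960 to 0.968) for HH14 over HH10, 0.949 (0.944 to 0.954) for HH18 over HH14 and 0.915 (0.910 to 0.919) for HH18 over HH10. The share was therefore a little lower in each later library, by far less than the 1.5-fold used here as the size of a called difference. These sums hold 425641, 389864 and 215349 UMIs, so counting error is small beside the differences, and the unknown spread between embryos is what limits them.

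Levels are given as counts per 1000000 UMIs of the library (CPM). A 3′ UMI counts a molecule whatever its length, so CPM can be set side by side between genes without a length term, apart from differences in capture that were not measured. The median of the 64 genes was 445 CPM at HH10, 454 CPM at HH14 and 454 CPM at HH18, against 24.3, 23.3 and 29.3 CPM for the median of all genes with 30 or more UMIs in the library. It lay above 96.5%, 96.5% and 96.3% of those genes. At least 100 CPM was reached by 58, 59 and 59 of the 64 genes, and at least 500 CPM by 29, 28 and 25.

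**Figure D1:**
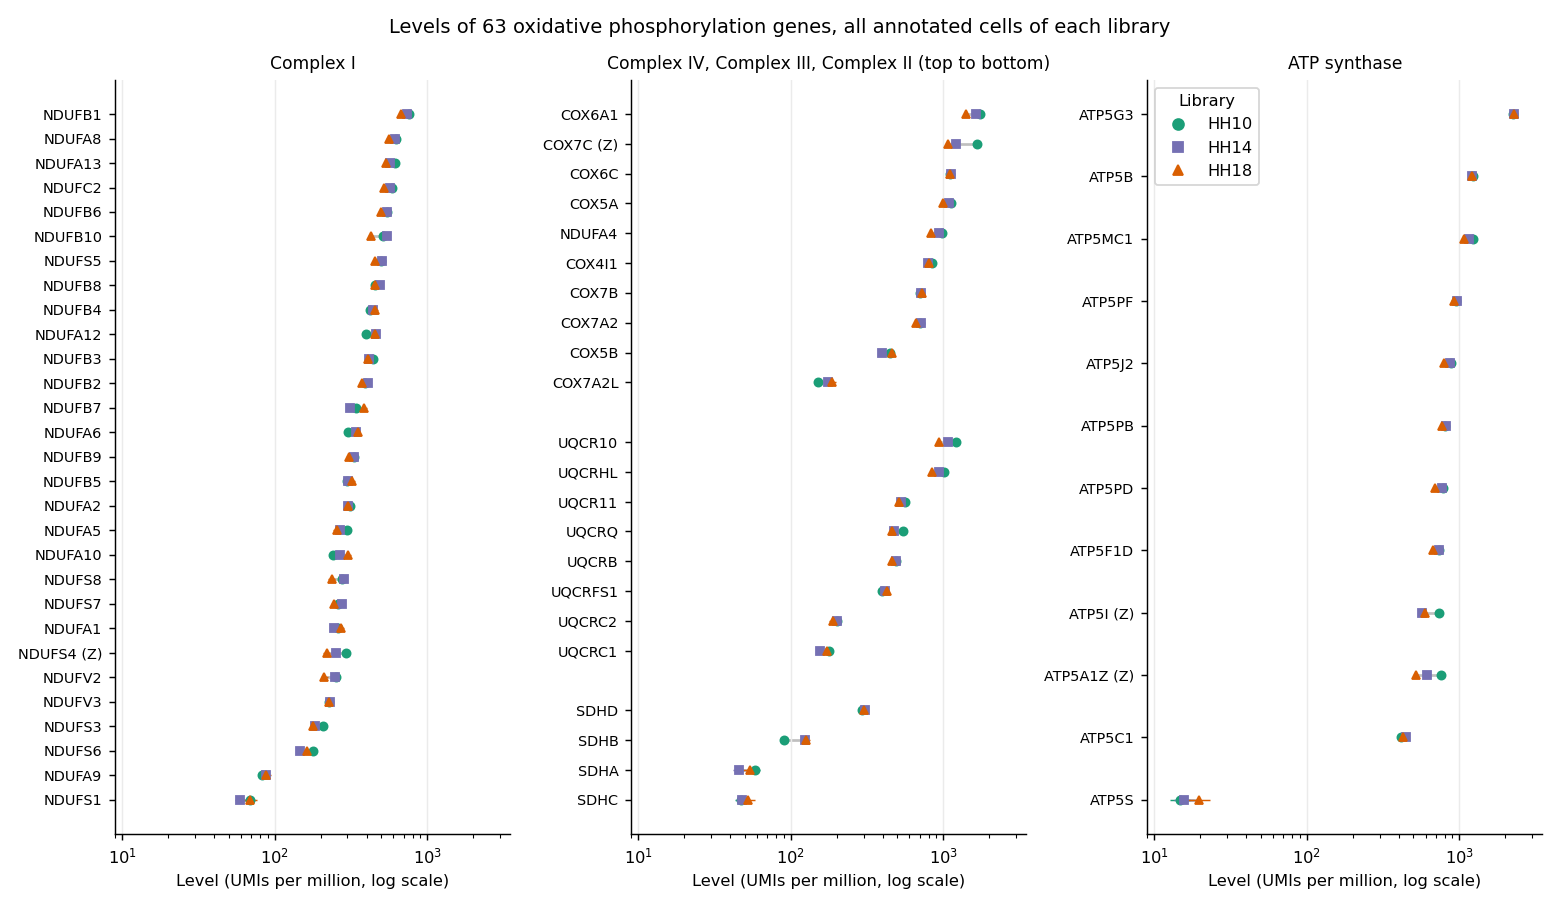
Levels of 63 of the 64 genes in each library, in CPM (UMIs per 1000000) on a log axis, with genes grouped by complex and ordered by level within it; circles are HH10, squares HH14 and triangles HH18, bars are 95% counting intervals, and (Z) marks genes on the Z chromosome. ATP5G3 was near 2246 to 2280 CPM in the 3 libraries, ATP5S was below 20 CPM, and COX7C (Z) shows the widest gap between HH10 and HH18 among genes over 1000 CPM.

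Complex I took 1.06%, 1.06% and 1.01% of UMIs at HH10, HH14 and HH18. Its most abundant transcript was NDUFB1, a small accessory subunit of the membrane arm, with 754, 731 and 671 CPM. The core subunits of the arm that holds the iron-sulphur clusters were lower. NDUFS1, the largest of them, had 69.3, 59.6 and 69.4 CPM, and NDUFS3, another of them, had 208, 183 and 179.6 CPM. NDUFA12 (399, 459 and 457 CPM), NDUFA6 (304, 342 and 350.4 CPM) and NDUFA10 (241, 268 and 300.4 CPM), all accessory subunits, were higher in both later libraries than at HH10. The folds of HH14 over HH10 were 1.15 for NDUFA12, 1.12 for NDUFA6 and 1.11 for NDUFA10, and all 3 were below the 1.5-fold size. NDUFB10, an accessory subunit of the membrane arm, had 515, 546 and 427 CPM, a fold of 0.783 (0.748 to 0.818) for HH18 over HH14. NDUFB7, also in the membrane arm, had 340.4, 311 and 387 CPM, a fold of 1.24 (1.18 to 1.31) for the same pair. Other genes at the ends of the HH18 over HH14 order were NDUFA1 with 1.12, NDUFS1 with 1.17 and NDUFS8, which carries iron-sulphur clusters, with 0.837. NDUFS6, an accessory subunit, was among the lowest for HH14 over HH10 with 0.813.

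Complex II, succinate dehydrogenase, took 0.0488%, 0.0523% and 0.0532% of UMIs, and its fold of HH18 over HH10 was 1.09. It was the only complex of the 5 with a higher share at HH18 than at HH10. SDHD, a membrane anchor, was its most abundant transcript with 293, 305 and 301 CPM, and SDHC, the other anchor, had 47.2, 48.0 and 52.2 CPM. SDHB, the iron-sulphur subunit, had 89.8 CPM at HH10, 124 CPM at HH14 and 125 CPM at HH18. Its fold of 1.38 (1.27 to 1.49) for HH14 over HH10 was the highest of the 64 genes, short of 1.5. SDHA, the flavoprotein subunit that works beside SDHB, had 58.0, 45.9 and 54.0 CPM and the fold 0.791 (0.704 to 0.887) for the same pair. The SDHB value depended on how cells were weighted: it was 1.54 with cells thinned to 1 depth and 1.15 with equal weight for each class.

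Complex III took 0.458%, 0.428% and 0.400% of UMIs (HH18 over HH10 0.872). UQCR10, a small subunit, was its most abundant transcript with 1209, 1077 and 935 CPM, and its fold of HH18 over HH10 was 0.774 (0.751 to 0.797). UQCRFS1, the Rieske iron-sulphur subunit, had 398, 412 and 427 CPM, and the core proteins UQCRC1 and UQCRC2 had 178, 155 and 173 CPM and 200.2, 200.1 and 190 CPM. UQCRFS1 was the only complex III gene with a higher level at HH18 than at HH10.

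Complex IV, cytochrome c oxidase, took 0.947%, 0.878% and 0.825% of UMIs (HH18 over HH10 0.872). COX6A1, a nuclear subunit, led it with 1734, 1627 and 1408 CPM, and COX7C, another small nuclear subunit, followed with 1662 CPM at HH10, 1213 CPM at HH14 and 1077 CPM at HH18. COX7C fell in the HH18 library, where its level was 0.648 times (0.631 to 0.666) that of HH10. COX5B had 449.6, 395 and 461 CPM, with a fold of 1.17 for HH18 over HH14. COX7A2L, a relative of COX7A2 known in mammals for joining complexes III and IV into supercomplexes, had 152, 176 and 187 CPM and the fold 1.23 (1.14 to 1.32) for HH18 over HH10.

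ATP synthase took 1.08%, 1.05% and 0.998% of UMIs (HH18 over HH10 0.926). ATP5G3, 1 of the genes for subunit c of the membrane rotor, was the most abundant of the 64 genes with 2246, 2270 and 2280 CPM, which left it nearly level through the 3 libraries. ATP5MC1, a second gene for subunit c, had 1224, 1161 and 1078 CPM. In the catalytic head, ATP5B (the beta subunit) had 1226, 1218 and 1205 CPM, while ATP5A1Z (the alpha subunit) had 763, 615 and 517 CPM. ATP5I, subunit e of the membrane part, had 739, 570 and 591 CPM. ATP5S was the rarest of the 64 genes, with 175, 177 and 129 UMIs and 14.8, 15.7 and 19.7 CPM.

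Across the 64 genes, 0 passed 1.5-fold in either direction for HH14 over HH10, where 19.1% of 10691 measured genes did. For HH18 over HH14 it was again 0, where 14.5% of 10461 genes did, and for HH18 over HH10 it was 1 (COX7C), where 26% of 10406 genes did. That call rested on how cells were weighted: as a mean over cells COX7C had 0.669 and 0 genes passed, while 2 passed with thinned cells and 3 with equal weight for each class. The 26% belongs to UMIs summed over cells, and the share of all measured genes under these other weightings is not given here. COX7C also stayed short of 1.5-fold within the cells high and low in W-linked transcripts described further on (0.832 and 0.825). These genes are abundant, and among genes with 1000 or more UMIs in the pair fewer passed 1.5-fold, namely 6.92%, 4.15% and 10.2%. The median log2 fold of the 64 genes was -0.01, -0.06 and -0.08 for the 3 pairs, against -0.01, 0.09 and 0.08 over all measured genes. Over genes with 1000 or more UMIs in the pair it was -0.05, 0.03 and -0.02. For HH18 over HH10, 22 of the 64 lay above 0 and 42 below, and the interval excluded a fold of 1 upward for 10 and downward for 34. Of the 10406 measured genes, 6066 lay above 0 and 4340 below, with 3138 intervals excluding 1 upward and 2055 downward. Intervals are narrower for abundant genes such as these, and the same count is not given for genes of like abundance. The central 90% of the 64 log2 folds ran from -0.36 to 0.28 for that pair, and that of all measured genes from -0.88 to 1.47. For genes with 1000 or more UMIs in the pair it was narrower, from -0.57 to 0.61. The pairs share libraries, so their values are not independent of each other.

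**Figure D2:**
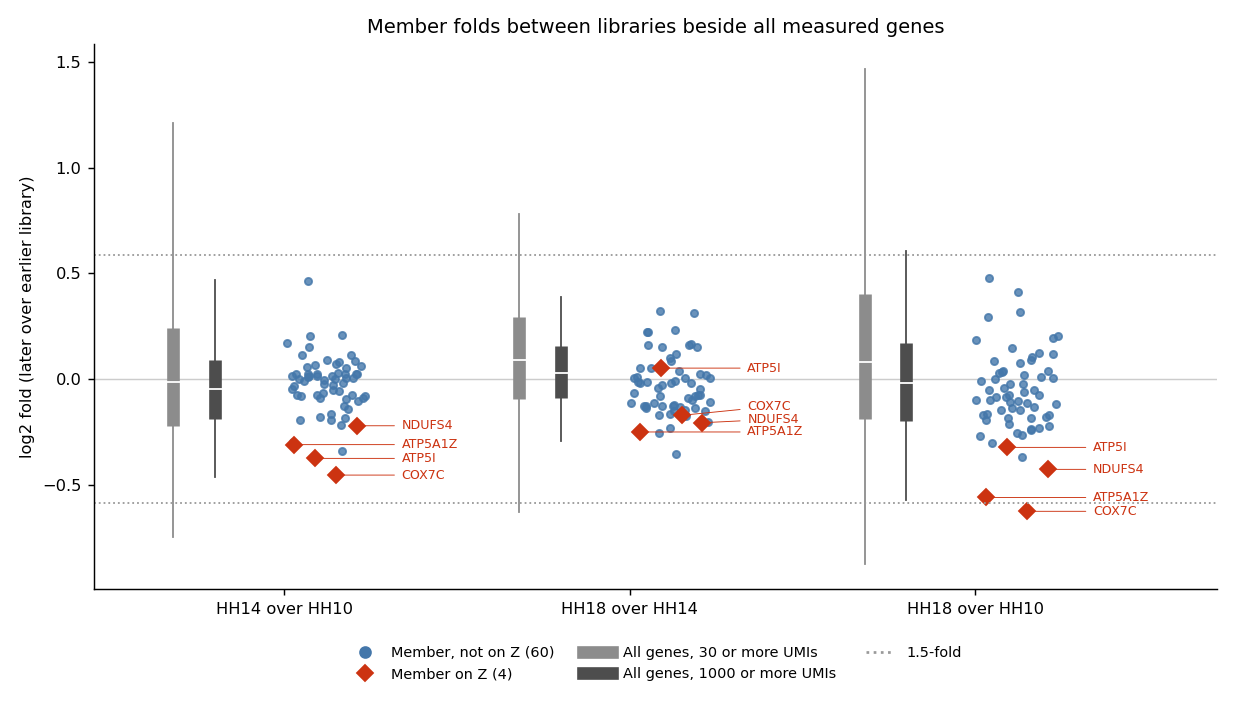
Log2 fold of each of the 64 genes for 3 pairs of libraries; grey marks give the 5th to 95th percentile, the quartiles and the median of all genes with at least 30 and at least 1000 UMIs, dotted lines are 1.5-fold, and red diamonds are genes on the Z chromosome. Most of the 64 genes lie inside the dotted lines, and COX7C is the single gene past them, for HH18 over HH10.

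Of the 5 genes with the lowest folds of HH18 over HH10, 4 lie on the Z chromosome, which the choice by symbol did not use, and the other was UQCR10 on rank 4. Of the 64 genes, 59 were found in the RefSeq gene table of the assembly GRCg7b, and 4 of these lie on the Z chromosome: COX7C, ATP5I, ATP5A1Z and NDUFS4. In birds, males carry a pair of Z chromosomes and females carry a Z and a W, and dosage compensation of Z genes is known to be incomplete. NDUFS4, an accessory subunit of the electron-input arm of complex I, had 295, 253 and 219 CPM, and its fold of HH18 over HH10 was 0.744 (0.699 to 0.791). For the same pair ATP5A1Z had 0.678 (0.652 to 0.706) and ATP5I 0.799 (0.769 to 0.830). For HH14 over HH10 the folds were 0.730 (0.714 to 0.746) for COX7C, 0.771 (0.746 to 0.796) for ATP5I, 0.807 for ATP5A1Z and 0.858 for NDUFS4. They held ranks 1, 2, 4 and 6 from the lowest in that order, with SDHA and NDUFS6 between them. For HH18 over HH14 NDUFB10 and NDUFS8 were the lowest of the 64. ATP5A1Z had 0.841 (rank 3), NDUFS4 0.867 (rank 6) and COX7C 0.888 (rank 9), while ATP5I had 1.04 (rank 49). Summed, the 4 genes took 0.346%, 0.265% and 0.240% of UMIs, a fold of 0.767 for HH14 over HH10, while the other 60 took 3.24%, 3.19% and 3.04%, a fold of 0.985. ATP5A1Z has a near-identical W copy that was not analysed here, so its counts may be incomplete in cells that carry a W.

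The libraries differed in W-linked transcripts. HINTW, the most abundant W-linked gene in the tables, had 1584 CPM at HH10, 3779 CPM at HH14 and 3664 CPM at HH18. Cells were split within each library by the summed level of 4 W-linked genes (HINTW, HNRNPKL, SPIN1W and SMAD7B), at limits set after the distribution was seen. Cells above 1000 CPM with at least 5 such UMIs are called W-high and cells under 400 CPM W-low. W-high cells numbered 326 at HH10, 739 at HH14 and 501 at HH18, which is 26.9%, 56.3% and 67.8% of the cells. W-low cells numbered 834, 503 and 204, and 50, 71 and 34 cells lay between the limits. W-high cells were shallower, with medians of 6913, 6422 and 5615 UMIs, against 8668, 8048 and 7646.5 UMIs in W-low cells.

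Within each library the 4 Z-linked genes were the 4 lowest of the 64 in W-high over W-low cells. COX7C had 994 CPM in W-high and 1896 CPM in W-low cells at HH10, 855 and 1659 CPM at HH14, and 826 and 1563 CPM at HH18, with folds of 0.524, 0.515 and 0.529. ATP5A1Z had 491 CPM in W-high and 853 CPM in W-low cells at HH10, 444 and 828 CPM at HH14, and 407 and 733 CPM at HH18, with folds of 0.576, 0.537 and 0.555. ATP5I had 443 CPM in W-high and 840.1 CPM in W-low cells at HH10, 417 and 758 CPM at HH14, and 462 and 846 CPM at HH18. The NDUFS4 folds were 0.527, 0.491 and 0.553, from 177 CPM in W-high and 335 CPM in W-low cells at HH10, 173 and 352 CPM at HH14, and 172 and 312 CPM at HH18. All 4 genes passed 1.5-fold lower in each library, where 5.78%, 6.18% and 5.55% of all measured genes did. Of the measured genes on the Z chromosome, 180 of 382, 228 of 391 and 178 of 349 passed it too, so this was common among Z genes. Of the other 60, 0 passed in either direction, where 9.76%, 8.83% and 10.3% of all measured genes did. Over all Z genes of the reference table the median log2 fold was -0.56, -0.69 and -0.60, so the 4 genes lay further down than the middle Z gene. With the split at 2 or more W-linked UMIs against 0, the summed fold of the 4 genes was weaker, at 0.625, 0.593 and 0.586. Of them 3, 4 and 4 passed 1.5-fold (ATP5A1Z had 0.680 at HH10), where 4.13%, 7.18% and 6.54% of measured genes did. Of the measured Z genes, 110 of 375, 179 of 384 and 123 of 344 did.

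The difference was seen class by class. Over 17 groups of a class and a library with at least 20 W-high and 20 W-low cells, the fold and its whole interval lay below 1 in all 17 for each of the 4 genes. Median folds over these groups were 0.527 for COX7C (0.452 to 0.626), 0.530 for ATP5I (0.430 to 0.746), 0.538 for ATP5A1Z (0.470 to 0.678) and 0.518 for NDUFS4 (0.385 to 0.598). The sum of the other 60 genes had a median fold of 0.990 in the same groups, with a range from 0.903 to 1.11.

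Set side by side within W-high cells and within W-low cells, the libraries differed less in the 4 genes. COX7C, at 0.648 for HH18 over HH10 in all cells, had 0.832 (0.792 to 0.873) in W-high and 0.825 in W-low cells. ATP5A1Z had 0.828 in W-high and 0.860 in W-low cells, and NDUFS4 had 0.975 and 0.930. ATP5I had 1.04 (0.971 to 1.12) in W-high and 1.01 in W-low cells, so its lower level in the HH18 library was not present in either kind of cell. Of all 64 genes, 1 passed 1.5-fold for HH18 over HH10 within W-high cells (SDHC, 1.63), where 24.1% of measured genes did, and 0 within W-low cells, where 27% did.

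**Figure D3:**
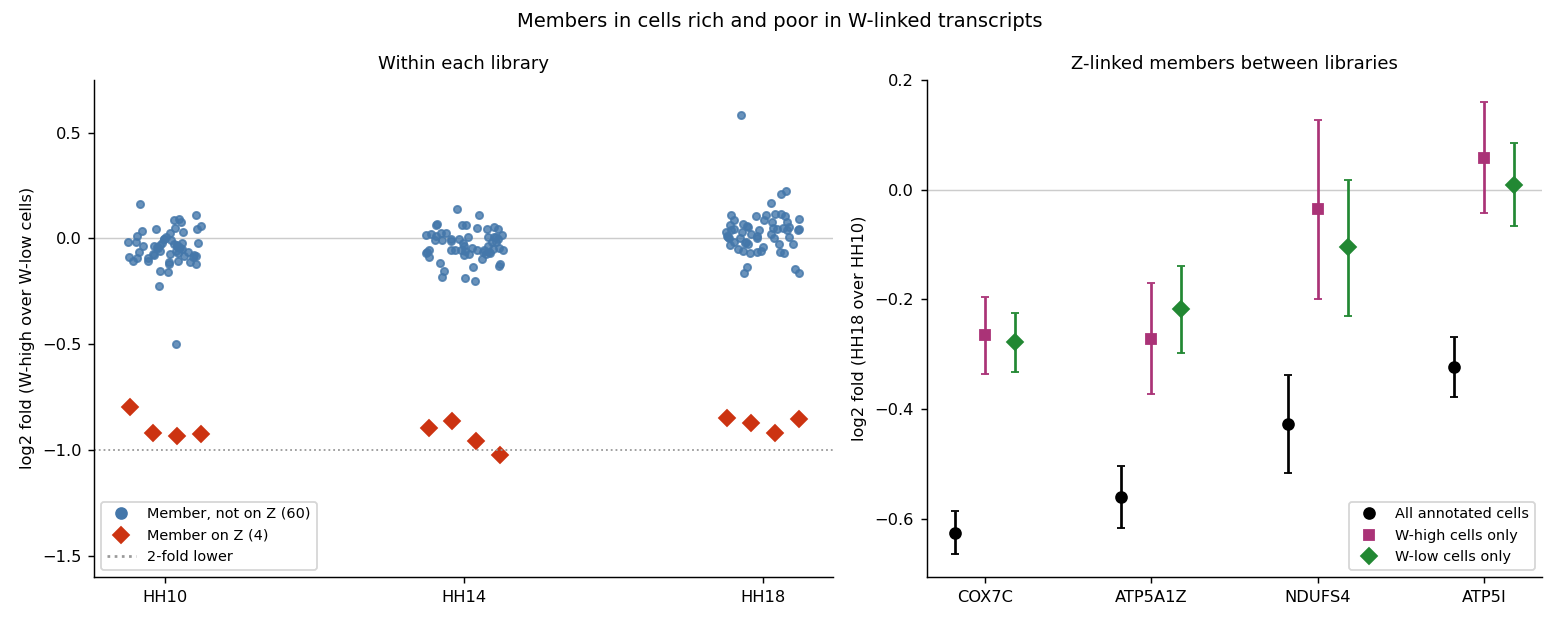
Left, log2 fold of W-high over W-low cells for each of the 64 genes in each library, with the 4 genes on the Z chromosome as red diamonds and a dotted line at 2-fold lower. Right, log2 fold of HH18 over HH10 for these 4 genes in all annotated cells (circles), in W-high cells (squares) and in W-low cells (diamonds), with 95% counting intervals; COX7C was at 0.832-fold in W-high cells and 0.825-fold in W-low cells, and at 0.648-fold in all cells.

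Between cell classes, the summed share varied more than between stages. Classes needed 20 cells, which gave 8 classes at HH10, 16 at HH14 and 9 at HH18. At HH10 the highest was undifferentiated LPM 7 with 4.15% of UMIs, against 3.38% in the rest of the library, a fold of 1.23 (1.22 to 1.24). In this class 58 of the 64 genes were above the rest and 6 below, with a median log2 fold of 0.29 beside -0.24 over all measured genes. None of the 64 passed 1.5-fold there, where 24.3% of measured genes did, so the difference was small in each gene and spread over the whole group. Its ribosomal protein share was 23.9%, the highest of the HH10 classes. Primitive MES had 3.31%, against 3.77% in the rest, and undifferentiated LPM 1 had 3.31%, against 3.63%. These 2 classes were deeper, with medians of 14196 and 8927.5 UMIs per cell, against 6402 UMIs in undifferentiated LPM 7. The part of depth in this order was not tested.

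At the later stages the somatopleure class, the outer layer of the lateral plate from which the limb mesenchyme arises, was highest. It had 3.94% at HH14, against 3.40% in the rest of that library (1.16-fold), and 4.18% at HH18, against 3.23% (1.30-fold). At HH18, 8 of the 64 genes rose past 1.5-fold in it, where 7.59% of measured genes did, and 2 fell, where 34.6% did. COX5B had 819 CPM in the HH18 somatopleure and 399.7 CPM in the limb bud mesenchyme of that library, and it was 1.87-fold over all other cells. Others among the 8 were NDUFA6 (1.65), NDUFA8 (1.63), UQCRQ (1.61), ATP5G3 (1.57) and ATP5MC1 (1.55). SDHA went the other way, with 23.2 CPM, the lowest of the 9 HH18 classes, and 0.41-fold of the rest from 9 UMIs. ATP5S (0.64) was the other gene that fell. At HH14 the class had 1 gene past 1.5-fold higher (SDHC, 1.54), where 3.99% of measured genes passed, and 0 lower, where 29.6% did.

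The somatopleure classes were shallower than the classes at the other end of the order. Some classes were shallower still, such as blood vessels (3551 UMIs) at HH14 and low count cells (2668 UMIs) at HH18. The HH18 somatopleure had a median of 3395 UMIs per cell and that of HH14 5335 UMIs. Limb bud mesenchyme at HH18 had 10313.5 UMIs and extraembryonic LPM at HH14 had 12560 UMIs. The latter classes had the lowest share of their libraries in summed UMIs. Over the 33 groups of a class and a library the share had a correlation of -0.21 with the median depth. Over single cells the Spearman correlation of the share with UMIs was stronger, at -0.47 at HH14 and -0.41 at HH18. With cells thinned to 2500 UMIs, 114 shallower cells of 1313 at HH14 and 95 of 739 at HH18 were left out, and the order of these classes held. The share was then 4.36% in somatopleure and 3.48% in limb bud mesenchyme at HH18, and 4.19% in somatopleure and 2.92% in extraembryonic LPM at HH14. Thinning evens out sampling only, and the part of depth in the class order was not tested.

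Limb bud mesenchyme, the class that builds the wing, had 3.16% of summed UMIs at HH18, against 3.36% in the rest (0.943-fold). At HH14 it had 3.21% from 21 cells. Its median cell at HH18 was not low, with 3.56% against 3.57% over all cells of the library. By that measure low count cells (3.24%) and flank LPM (3.38%) were among the classes below it. At HH18, 23 of the 64 genes were above the rest and 41 below, and 0 passed 1.5-fold, where 23.8% of measured genes did. Extraembryonic LPM at HH14 had 2.81%, against 3.53% (0.795-fold), with 58 of 64 genes below the rest. In that class 2 genes fell past 1.5-fold (COX5B to 0.63 and NDUFB4, an accessory subunit of complex I, to 0.66), where 13.2% of measured genes did.

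The lowest share was in the HH10 class called primitive streak, with 2.07%, against 3.62% in the rest, a fold of 0.570 (0.554 to 0.587). In its 29 cells 46 of the 64 genes fell past 1.5-fold, where 15.2% of measured genes did, and ATP5S (1.77, from 6 UMIs) was the 1 that rose, where 45.7% did. COX7A2, a small subunit of complex IV, had 171 CPM there and between 615 and 860 CPM in the 7 other classes. NDUFA6 had 111 CPM there and 383 CPM in endoderm, and UQCRQ, a small subunit of complex III, had 206 CPM there and 677 CPM in undifferentiated LPM 7. COX7B, another small subunit of complex IV, and NDUFB1 followed, with 253 and 287 CPM in the class. COX6A1 was among the genes that did not fall past 1.5-fold, with 1568 CPM in the class and 1734 CPM in the whole library. Above the rest lay 6 of the 64 genes, among them NDUFS1 (103 CPM, against 69.3 CPM in the whole library) and ATP5A1Z (806 CPM, against 763 CPM). Mitochondrially encoded transcripts were at 4.94% of UMIs in the class, 2.09-fold over the rest of the library, and ribosomal protein transcripts at 9.68%, the lowest of the HH10 classes. Summed, nuclear and mitochondrially encoded subunits thus stood on opposite sides of the rest of the library, and the part of RNA quality or cell identity in these values was not tested.

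**Figure D4:**
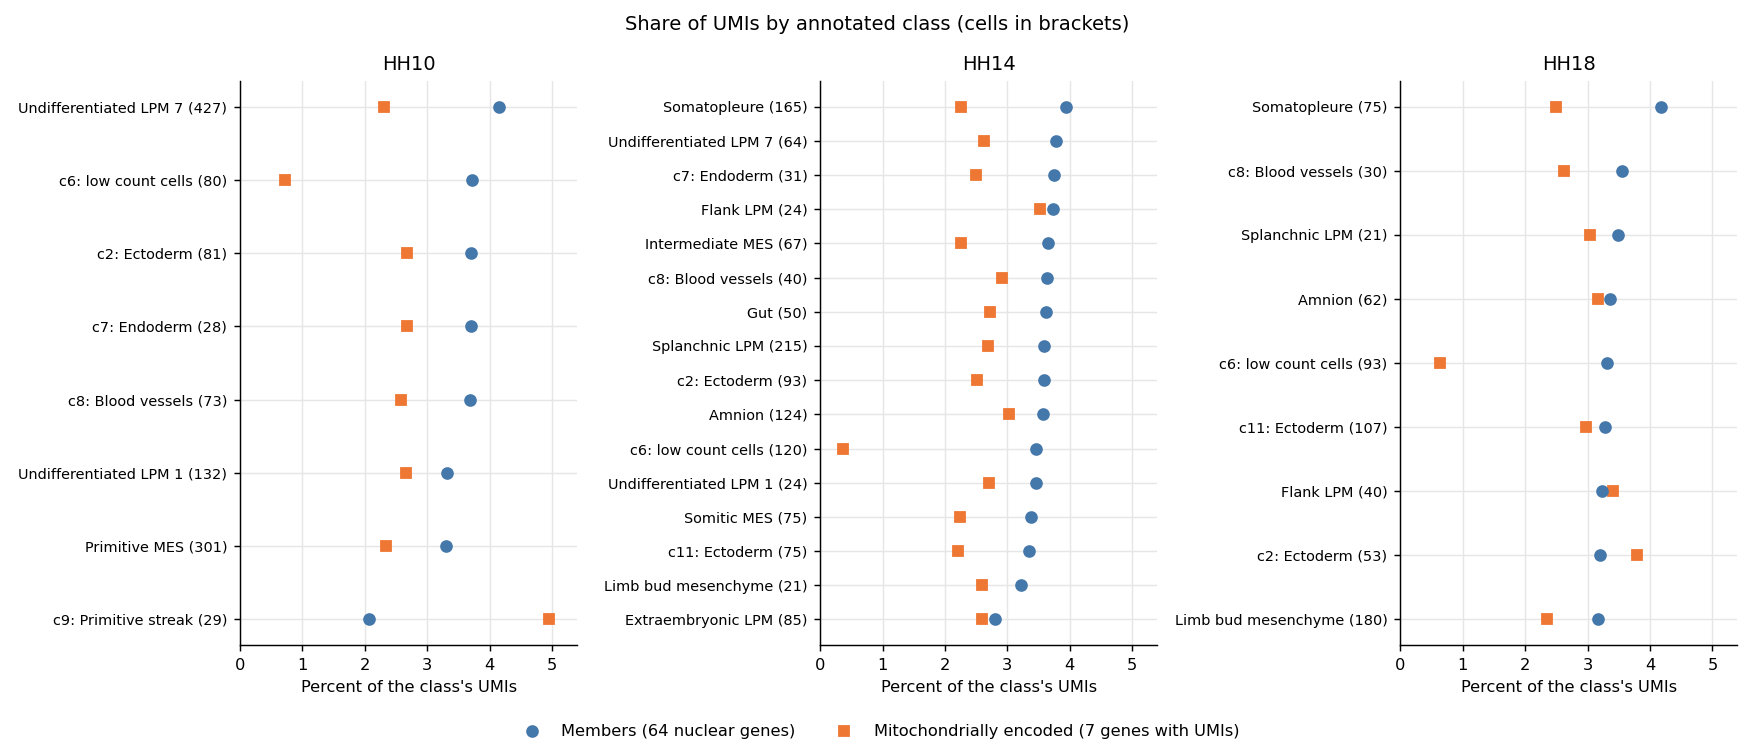
Percent of UMIs in the 64 nuclear genes (circles) and in the mitochondrially encoded subunits (squares) for each annotated class of at least 20 cells, with the number of cells in brackets and classes ordered by the circles within each library. The circles run from 2.07% to 4.15% at HH10, from 2.81% to 3.94% at HH14 and from 3.16% to 4.18% at HH18, while the squares drop under 1% in low count cells in each library.

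In summed UMIs the low count cells differed in composition rather than in total share. Cell by cell their median share was lower, at 3.61%, 3.51% and 3.24%, against 3.88%, 3.76% and 3.57% over all cells of each library. Summed, they had 3.72%, 3.46% and 3.31% of UMIs in the 64 genes at HH10, HH14 and HH18, close to the rest of each library. In mitochondrially encoded genes they had 0.719%, 0.359% and 0.634%. The annotation gives under 1% mitochondrial UMIs for 83.8%, 92.5% and 79.6% of these cells. UQCRC2 had 371 CPM in them at HH10 and between 177 and 209 CPM in the other classes, 353 CPM at HH14 and between 141 and 230 CPM elsewhere, and 286 CPM at HH18 and between 101 and 264 CPM elsewhere. NDUFA13, an accessory subunit of complex I, had 347, 311 and 269 CPM in them, below every other class of the library except the primitive streak at HH10. ATP5B was also high, with 2019, 1822 and 1764 CPM in low count cells, against whole-library levels of 1226, 1218 and 1205 CPM. Counted over the 64 genes, 4 rose and 2 fell at HH10, where 14.1% and 42.2% of measured genes did. At HH14, 5 rose and 1 fell, where 13% and 39.3% did, and at HH18, 1 rose and 1 fell, where 12.6% and 39.9% did.

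The ratio of the highest to the lowest class within a library had a median over the 64 genes of 2.27 at HH10, 1.71 at HH14 and 1.65 at HH18, against 3.51, 4.55 and 3.21 over all genes with 100 or more UMIs in the library. Among genes at 500 CPM or more it was 2.27, 1.61 and 1.61 for the 29, 28 and 25 genes of the group, against 2.30, 1.84 and 1.78 over all genes at that level. Set against genes of like abundance, the ratio of the group was thus nearly the same at HH10 and lower at HH14 and HH18. At HH10 the lowest class was the primitive streak class for most of the 64 genes, and no ratio is given without it. At HH14, after ATP5S, the ratios were highest for SDHB (186 CPM in low count cells and 72.3 CPM in endoderm), NDUFA13 (788 CPM in gut) and UQCRC2. At HH18, SDHA had 72.9 CPM in amnion and 23.2 CPM in somatopleure, and NDUFB5, an accessory subunit of complex I, had 428 CPM in amnion and 194 CPM in the c2 ectoderm class.

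Compared within the same class, the later library was lower in most classes but not in all. For HH14 over HH10 the summed fold was 0.911 (0.897 to 0.926) in undifferentiated LPM 7, 0.967 in c2 ectoderm and 0.930 in low count cells. It was 1.04 (1.02 to 1.07) in undifferentiated LPM 1, with 3.45% in 24 cells at HH14 and 3.31% in 132 cells at HH10. Endoderm (1.02) and blood vessels (0.985) had intervals that included 1. For HH18 over HH14 it was 0.867 in flank LPM, 0.894 in c2 ectoderm and 0.943 in amnion, and 0.985 in limb bud mesenchyme, where the interval included 1. Somatopleure was the exception with 1.06 (1.04 to 1.08), from 4.18% at HH18 and 3.94% at HH14. In it 3 of the 63 measured genes rose past 1.5-fold: COX5B (1.68), NDUFS1 (1.63, interval 1.04 to 2.51, from 33 UMIs at HH18) and NDUFB7 (1.51). SDHA was at 0.64, from 9 UMIs at HH18 and 45 at HH14, with an interval that included 1 (0.276 to 1.33). Of all measured genes 19.5% passed in either direction.

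**Figure D5:**
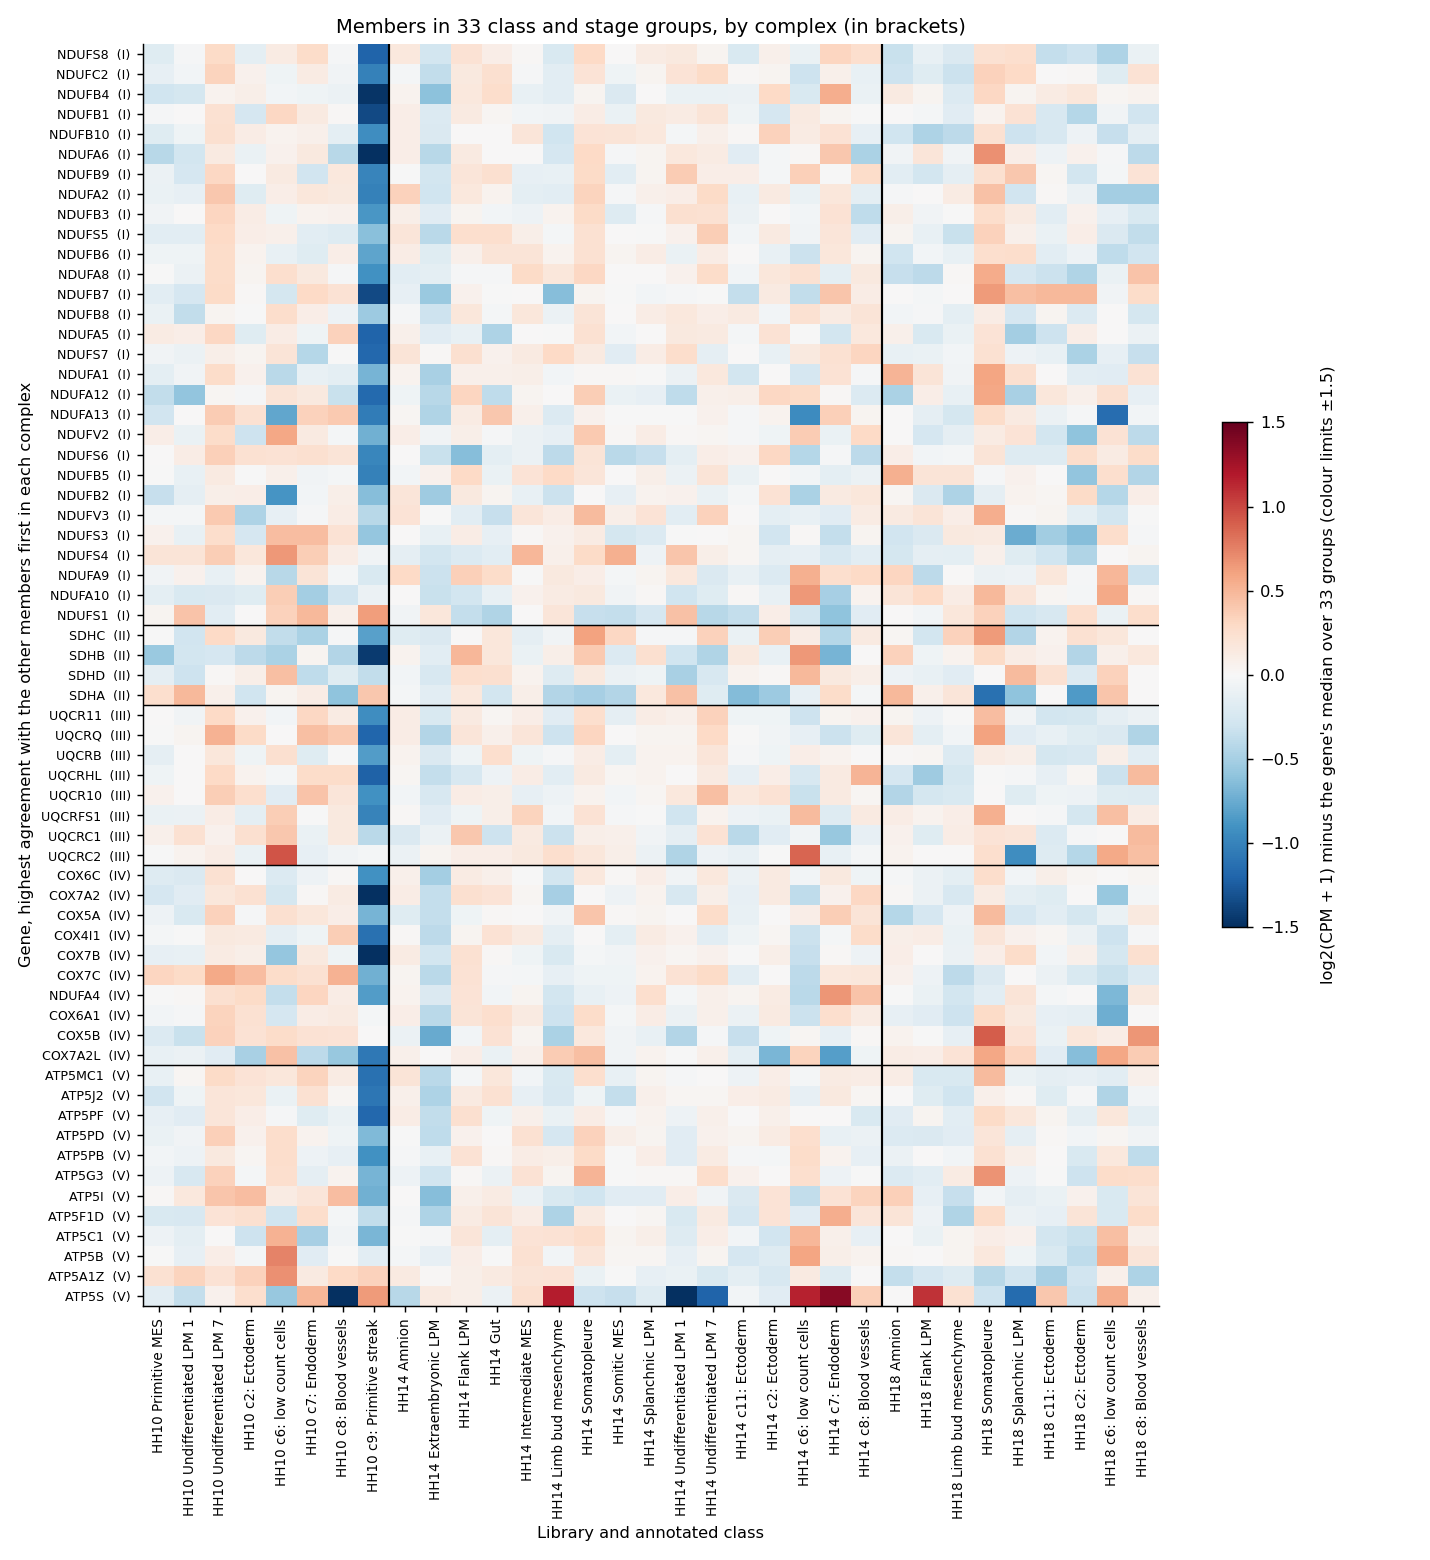
Level of 63 of the 64 genes in 33 groups of a class and a library, as log2(CPM + 1) minus the gene's median over the groups, with colours limited at 1.5 either way and genes ordered within each complex by how closely they follow the others. The HH10 primitive streak column is low for most genes, and the somatopleure columns are high for many.

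Most of the 64 genes followed each other over the 33 groups. The correlation of each gene's log2 level with the summed level of the other 63 had a median of 0.68 and was over 0.5 for 44 genes, as a description of groups that share libraries and depth. At 100 CPM or more in each library the median was 0.70 over 58 genes of the group, with 74.1% over 0.5, against -0.05 over 1413 genes outside it, with 15.4% over 0.5. At 500 CPM or more it was 0.75 over 25 genes of the group, with 88% over 0.5, against 0.37 over 240 genes outside it, with 38.8% over 0.5. ATP5MC1 followed the others most closely (0.94), then UQCR11 (0.89), COX6C (0.88) and NDUFS8 (0.87). The correlation was below 0 for 4 genes: NDUFS1 (-0.39) and SDHA (-0.29), the large redox subunits of complexes I and II, ATP5S (-0.19) and ATP5A1Z (-0.13). NDUFS1, SDHA and ATP5S were all below 100 CPM in each library, so few UMIs stand behind their values in small groups. At 100 CPM or more, 1 of 58 genes of the group lay below 0, against 54.4% of the genes outside it. Over the same groups the summed share had r = 0.85 with the ribosomal protein share and r = -0.21 with the mitochondrially encoded share. The HH10 primitive streak class lay apart from all other groups. It had 2.07% in the 64 genes, 9.68% in ribosomal protein genes and 4.94% in mitochondrially encoded genes. This class can weigh heavily on every correlation over the 33 groups, and none was computed without it.

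Cell by cell, the median share was 3.88% at HH10, 3.76% at HH14 and 3.57% at HH18, and 3.84%, 3.68% and 3.56% with cells thinned to 2500 UMIs, which left out 72, 114 and 95 shallower cells. The share was lower in cells with more UMIs, with Spearman correlations over cells of -0.47, -0.47 and -0.41, and higher in cells with a greater ribosomal protein share, with 0.75, 0.65 and 0.59. By the annotated cell cycle phase it was lowest in S phase, with 3.38%, 3.14% and 3.10%, against 3.68%, 3.56% and 3.36% in G1 and 3.63%, 3.45% and 3.26% in G2M. S phase was also lowest in each of the 6 classes with 20 or more cells in every phase, by little in undifferentiated LPM 7 and primitive MES. Undifferentiated LPM 7 had 4.15% in G1, 4.12% in S and 4.15% in G2M. Primitive MES had 3.24% in G1, 3.22% in S and 3.43% in G2M, and its intervals for G1 and S overlapped. Cells in S phase were the deepest of each library, with medians of 8477, 7441 and 6281 UMIs, against 7770, 6422 and 5922 UMIs in G1 and 7368, 6799 and 6083 UMIs in G2M, and the part of depth in the order was not tested. Ribosomal protein transcripts were lowest in S phase too, at 20.9%, 20.3% and 19.7% of UMIs.

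Related genes for the same place in a complex were compared by their share of the pair's UMIs. COX7A2L made up 17.8% (17.0 to 18.5) of COX7A2L and COX7A2 together at HH10, 19.7% at HH14 and 21.9% (20.9 to 23.1) at HH18. It was low in c2 ectoderm (11.6% at HH14 and 12.5% at HH10) and in endoderm at HH14 (11.1%). At HH18 it was 24.2% in limb bud mesenchyme, much as in splanchnic LPM (24.4%) and somatopleure (24.3%), and highest in low count cells (34.2%). ATP5MC1 made up 35.3%, 33.8% and 32.1% of the UMIs of the subunit c genes ATP5MC1 and ATP5G3. Its share in amnion was 40.1% at HH18 and 39.2% at HH14, and in limb bud mesenchyme 29.6% at HH18 and 30.8% at HH14. At HH14 neither value was particular to its class, with 39.2% in gut and 31.0% in somatopleure. The highest share was 42.6%, in endoderm at HH10, and the lowest 28.3%, in low count cells at HH18.

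The genes around these in the same pathway were counted from lists that do not overlap the 64. Of 13 mitochondrially encoded subunits 7 had UMIs, and COII, COX3, ATP6, ATP8, ND3 and ND4L were listed at 0. Summed, they took 2.42%, 2.44% and 2.67% of UMIs, so their share was higher at HH18, where that of the 64 nuclear genes was lower. All 7 had a fold above 1 for HH18 over HH10, none past 1.5-fold, where 17.3% of measured genes rose past it, and ND1, a membrane subunit of complex I, had the highest with 1.25. CYCS, cytochrome c, which carries electrons between complexes III and IV, had folds of 0.946, 0.905 and 0.856 for HH14 over HH10, HH18 over HH14 and HH18 over HH10.

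Of 12 complex I assembly genes 0 rose or fell past 1.5-fold for HH14 over HH10, where 19.1% of measured genes did, with NUBPL at the edge (1.50), and 1 fell for HH18 over HH10, where 8.74% of measured genes did. It was NDUFAF2, at 0.619 and also on the Z chromosome. Of 25 assembly genes of complexes II to V, 2 were past 1.5-fold lower for HH14 over HH10, where 7.08% of measured genes were. They were SCO2 (0.578) and PET117 (0.614), and the interval of PET117 included 1 (0.294 to 1.24). For HH18 over HH10 it was 1 (COX10, 0.664), where 8.74% were. Of the 14 measured citrate cycle genes 0 passed 1.5-fold in any pair, where 19.1%, 14.5% and 26% of measured genes did for HH14 over HH10, HH18 over HH14 and HH18 over HH10. MDH2, malate dehydrogenase, had folds of 0.802, 0.862 and 0.691 for the 3 pairs. Among 7 measured carriers and channels VDAC1, an outer membrane channel, rose for HH14 over HH10 (3.46, from 69 UMIs at HH14 and 21 at HH10), where 12% of measured genes did. SLC25A5, an ADP and ATP carrier, had 1.24 for HH18 over HH10.

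Among 11 measured regulators of mitochondrial genes, 2 fell for HH14 over HH10, where 7.08% of measured genes did, and the same 2 for HH18 over HH10, where 8.74% did. They were growth regulators with many other targets: MYCN to 0.441 and 0.489, and MYC to 0.474 and 0.375. NRF1, a transcription factor for nuclear respiratory genes, had 0.711 for HH14 over HH10 and 1.45 for HH18 over HH14. The mitochondrial ribosome, 69 genes, took 1.26%, 1.21% and 1.14% of UMIs, a fold of 0.904 for HH18 over HH10. Of its genes 3 fell past 1.5-fold for that pair (MRPS18A to 0.469, MRPL50 to 0.571 and MRPS24 to 0.666), where 8.74% of measured genes did. None rose, where 17.3% of measured genes did. MRPL50, like NDUFAF2, lies on the Z chromosome. The 67 cytosolic ribosomal protein genes took 21.9%, 21.4% and 20.3%, a fold of 0.925, close to the 0.915 of the 64 genes.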

How the data were processed

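For each library the authors deposited raw UMI counts, with genes in rows and cells in columns, and for all libraries a table that annotates each cell. Cell Ranger 4.0.0 and the build GRCg6a are named in the submitters' processing notes. As deposited by the authors, the annotation gives the percent of UMIs in mitochondrial and in ribosomal protein genes per cell. Summed counts equalled the annotated total in 84.4% of cells (largest difference 9 UMIs). Of the annotation's columns, 8 were left unused. Filters applied before deposit and any removal of doublets are not given in the sources used here; no doublet caller was run, and leaving out the top 2% of cells by UMIs was an alternative.

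Counts of all cells in a class (the finer annotated class where present, otherwise the first level) or in a library were summed and divided by their total, giving CPM with exact Poisson intervals. Folds have exact conditional binomial intervals and shares Clopper-Pearson intervals, all at 95% and covering counting error only. A gene was measured with 30 UMIs in the 2 sums together and called past 1.5-fold. Z and W linkage came from RefSeq's GRCg7b table by symbol (11956 symbols matched) and served for linkage only. The promoter motif search planned for these genes was not run because no sequence was at hand.

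Named for each pair of libraries were the 5 highest and the 5 lowest of the 64 genes, ranked by the interval bound nearest to 1, with 100 UMIs or more. Named over classes were genes among the 10 with the largest ratio of highest to lowest class. The leading gene of each complex, the related pairs, the Z-linked genes and the 3 largest changes of each list completed the rule, and a few others in the text were chosen after their values were seen. Of the 64 genes, 1 is not reported here by name and is left out of the plots that name genes, while sums and counts include it. The 64 genes and the lists were chosen with earlier results of these data known. The W-high and W-low split, the folds within those cells, the minimum of 1000 UMIs and the comparisons with other genes at 100 or 500 CPM were chosen after seeing the data. Python 3.11.15, numpy 2.4.6, scipy 1.17.1, pandas 2.3.3 and matplotlib 3.10.9 were used, and the fold and interval code was tested on simulated data.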

Additional observations from a re-analysis of the deposited data

Results flagged for a closer look

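The summed share of the 64 genes was higher at HH14 than at HH10 in undifferentiated LPM 1 (fold 1.04, interval 1.02 to 1.07, 24 cells at HH14 and 132 at HH10), while in 3 other classes the whole interval of the same fold lay below 1: undifferentiated LPM 7 with 0.911, c2 ectoderm with 0.967 and low count cells with 0.930. With 1 library per stage the difference between classes was not tested.

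The summed share was higher at HH18 than at HH14 in somatopleure (fold 1.06, interval 1.04 to 1.08, 75 cells at HH18 and 165 at HH14), while in 5 other classes the whole interval lay below 1: flank LPM with 0.867, c2 ectoderm with 0.894, amnion with 0.943, low count cells with 0.956 and c11 ectoderm with 0.979. The median depth in somatopleure was 3395 UMIs per cell at HH18 and 5335 UMIs at HH14. This difference was not tested either.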

How the results depend on the processing

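The order of the summed share, highest at HH10 and lowest at HH18, held under each alternative run. At HH10, HH14 and HH18 it was 4.75%, 4.62% and 4.30% with haemoglobin, mitochondrially encoded and ribosomal protein genes left out of the totals, 3.86%, 3.76% and 3.60% as a mean over cells, and 3.85%, 3.73% and 3.55% with thinned cells. It was 3.65%, 3.53% and 3.36% without the top 2% of cells by UMIs, 3.70%, 3.56% and 3.35% with equal weight for each class, and 3.68%, 3.56% and 3.36% in G1 cells. In W-high cells it was 3.38%, 3.36% and 3.25%, and in W-low cells 3.66%, 3.56% and 3.34%. The number of the 64 genes past the fold was 1 with thinned cells for HH14 over HH10 and for HH18 over HH14. For HH18 over HH10 it was 0 with the mean over cells, 2 with thinned cells, 3 with equal weight for each class, 0 in W-low cells, 2 with median-of-ratios scaling and 0 at a fold of 2. Of all measured genes, 27% passed 1.5-fold in W-low cells, and at a fold of 2 947 of 10406 rose and 439 fell. For the other alternatives the share over all measured genes is not given here. COX7C for HH18 over HH10 was 0.669 as a mean over cells and so no longer past 1.5-fold, and ATP5A1Z was 0.654 with median-of-ratios scaling and 0.631 with equal weight, past it. The highest class over the lowest was 2.32 at HH10 (2.01 with all genes in the totals), 1.45 at HH14 (1.40) and 1.36 at HH18 (1.32) with those 3 gene groups left out of the totals, and at HH14 1.44 with thinned cells and 1.50 as a mean over cells. Genes past 1.5-fold summed over classes were 21 at HH14 and 24 at HH18 as computed, 78 and 55 with thinned cells, and 38 and 39 as a mean over cells. These totals run over the 64 genes in each of 16 classes at HH14 and 9 at HH18. The same totals were not made over all measured genes, so the rise cannot be read as a trait of the 64. The summed fold of the Z-linked genes at HH10, HH14 and HH18 was 0.764, 0.659 and 0.639 with 1 or more W-linked UMIs against 0, and 0.536, 0.525 and 0.541 for W-high over W-low cells. In cells above the median depth it was 0.613 at HH14. Directions turned in 6 cases: mitochondrially encoded subunits for HH14 over HH10, to 0.998 with equal weight for each class and 0.913 in W-high cells; NDUFS4 for HH14 over HH10, to 1.05 in W-low cells; the regulators' sum for HH18 over HH14, to 0.994 with equal weight; and ATP5I for HH18 over HH10, to 1.04 in W-high and 1.01 in W-low cells. The cause was not tested in any of these. Of 340 alternative values of the named genes' folds, 263 moved by less than their counting interval, 74 by more and 3 turned. Of 99 alternative class shares 88 moved by more, and a share has no direction that could turn. No paired analysis was possible because each stage had 1 library. Genes such as ATP5S, with under 200 UMIs per library, are limited by depth in every class.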
